A study of Mus musculus with 7 samples.

Results

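The genes described here are 32 genes of the integrated stress response and of transfer RNA charging: stress factors controlled with or by the transcription factor ATF4, enzymes of serine, folate, asparagine and proline metabolism, amino acid transporters, and cytosolic aminoacyl-tRNA synthetases. They were chosen by name, with earlier results of these data known. A gene was measured if a probe set of the array carried its symbol and no other, and the brightest such probe set stood for it. This held for 30 of the 32 genes, among 22180 genes in all. Mars was listed under its newer symbol Mars1, Aars was listed only on a probe set shared with a neighbouring gene, and Pycr1 was not analysed here.

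The values came from macrophages of inflamed mouse colon. All mice carried 2 floxed alleles of Rictor, a subunit of the kinase complex mTORC2, and all received 5% dextran sulphate sodium, which injures the colon epithelium, for 5 days and plain water for 3 days. LysM+/cre mice also carried cre recombinase on 1 copy of LysM, the gene Lyz2, whose activity spans macrophages, monocytes and neutrophils, and LysM+/+ mice lacked it. Each of 3 LysM+/+ and 4 LysM+/cre samples was hybridised to 1 Affymetrix Mouse Gene 2.0 ST array, after a sort for Ly6C-negative cells that bore CD64 and MHC class II beside CD11b and CD45. No group carried cre without floxed Rictor, so loss of Rictor, cre itself and its insertion into Lyz2 cannot be told apart. The labels do not state the age or sex of the mice, nor whether a sample was 1 mouse or a pool.

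In the integrated stress response, kinases that sense amino acid shortage, unfolded protein, haem shortage or double-stranded RNA phosphorylate the translation factor eIF2. Most translation then slows while the messenger RNA of ATF4 is read more, so that ATF4 protein can rise without more Atf4 RNA. ATF4, paired with C/EBP proteins, switches on genes for amino acid uptake, amino acid synthesis and tRNA charging. The same genes are a known output of mTORC1, the sister complex of mTORC2, in proliferating cells.

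ATF4 with a C/EBP partner is known to bind a composite element, and the letters TGATGNAA, in which N is any base, were searched for on both strands of RefSeq promoters of build GRCm38.p6. Each promoter ran from 250 bases before to 50 bases after an annotated start. Of 28 members with a promoter in the table, 12 (42.9%) held the letters, against 4.51% of 27025 genes. The members were chosen by name as genes of the ATF4 programme, so this share is not independent of that choice. The matches included 5 of 8 synthetases, 4 of 10 stress factors and 0 of 5 serine and folate enzymes. Vldlr (200 bases before the start), Aars and Pycr1 held the letters but are not printed. The sequences below are those of the other matching members, shown because they are the stretch that these members share. Each is read along the strand of its gene, with the matching letters in capitals. Capitals that begin with TT are the opposite-strand form TTNCATCA.
Asns (chr6:7693215-7693242, minus strand, 23 bases before the start): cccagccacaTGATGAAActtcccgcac
Nupr1 (chr7:126625563-126625590, minus strand, 110 bases before): aagggccagaTTGCATCAgacagggctt
Chac1 (chr2:119351039-119351066, plus strand, 193 bases before): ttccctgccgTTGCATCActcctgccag
Trib3 (chr2:152344029-152344056, minus strand, from base 15 after the start): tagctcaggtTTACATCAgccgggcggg
Slc7a11 (chr3:50443662-50443689, minus strand, 66 bases before): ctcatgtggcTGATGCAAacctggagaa
Slc7a11 (chr3:50443643-50443670, minus strand, 47 bases before): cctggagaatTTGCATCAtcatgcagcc
Gars (chr6:55037961-55037988, plus strand, 30 bases before): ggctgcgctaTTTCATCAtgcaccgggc
Iars (chr13:49682127-49682154, plus strand, from base 8 after the start): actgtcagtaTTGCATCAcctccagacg
Tars (chr15:11399656-11399683, minus strand, 15 bases before): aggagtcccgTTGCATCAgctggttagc
Yars (chr4:129189896-129189923, plus strand, from base 4 after the start): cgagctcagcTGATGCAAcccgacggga
A match is a description of the letters, not a measured binding site.

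Rictor itself measured 7.76, 7.74 and 7.80 on the LysM+/+ arrays and 7.72, 7.76, 8.25 and 7.80 on the LysM+/cre arrays, so its level did not separate the genotypes (difference 0.12 ± 0.13, SE, adjusted p = 0.749). Which exons the probe set reads and which exon is floxed were not used here, so this checks neither the deletion nor the labels, and genotype names below are those of the labels. Array medians lay between 5.16 and 5.22 on the log2 scale. LysM+/+ array 2 and LysM+/cre array 3 stood at the ends of the mean level over 13 neutrophil markers. It was 5.41 and 7.93 there, against 6.15 to 6.99 on the other 5 arrays. The mean of 10 fibroblast and smooth muscle markers was 7.30 to 7.64 on LysM+/+ and 6.84 to 7.32 on LysM+/cre arrays. The mean of 12 epithelial markers was 6.69 to 7.99 against 6.77 to 7.69, and that of 10 lymphocyte markers 5.33 to 5.60 against 5.24 to 5.59. The gating markers were bright, but not all were level between the genotypes. Fcgr1 (CD64) lay at 9.49 to 10.28 on LysM+/+ and 10.28 to 11.10 on LysM+/cre arrays, a difference of 0.97 ± 0.26 (SE, adjusted p = 0.362), and Itgam (CD11b) at 11.20 to 11.76 and 11.68 to 12.29, a difference of 0.53 ± 0.19 (SE, adjusted p = 0.415). Ptprc (CD45) lay at 10.85 to 11.01 and 11.01 to 11.35, and H2-Ab1 (MHC class II) at 13.11 to 13.41 and 12.59 to 13.48. Ly6c2, which encodes an antigen the sort selected against, lay at 6.87 to 7.70 and 7.69 to 9.30, a difference of 1.09 ± 0.41 (SE, adjusted p = 0.415). The fibroblast gene Dcn differed by -1.38 ± 0.27 (SE, adjusted p = 0.328). Fcgr1, Itgam, Ly6c2 and Dcn each had an unadjusted p under 0.05 in limma, which 11.5% of all genes reached. So did Mmp9 (1.35), Cd79b (0.39) and Cd3d (0.21) as higher. As lower so did Cd68 (-0.20), Lum (-0.78), Pdgfra (-0.88), Car4 (-0.94) and Slc26a3 (-1.07). Mertk (-0.31) went against Fcgr1, and Col1a1 (0.04), Col3a1 (0.17) and Thy1 (0.09) went against Dcn. In bulk RNA, fewer cells of a type and less RNA per cell cannot be told apart.

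LysM+/cre arrays were compared with LysM+/+ arrays, that is by labelled genotype. The 30 members did not move as a block. Of them 18 (60.0%) lay higher and 12 lower with cre, where 51.4% of all genes lay higher, and their median log2 difference was 0.08 against 0.004 over all genes. With array medians set equal, which moved the median of all genes to 0.028, 22 of 30 members and 58.2% of all genes lay higher; Atf5, Trib3, Asns and Slc7a5 then lay just above 0. In limma 0 members passed an adjusted p of 0.05, as did 0.0% of all genes tested. The smallest adjusted p among members was 0.394, and 3 members, or 1 in 10, reached an unadjusted p under 0.05, against 11.5% of all genes. Of these, Mars and Sesn2 were higher, where 6.56% of all genes were, and Nupr1 was lower, where 4.93% were. For 2 of 30, Mars and Nupr1, no array of 1 genotype lay within the range of the other, against 8.79% of all genes. These shares are near the background and mark nothing about the members as a whole. Counts at the unadjusted threshold were 1 without LysM+/+ array 1, 6 without LysM+/cre array 3, and 2 to 4 without each of the other 5 arrays. Without LysM+/+ array 2 the members' median difference was 0.013.

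**Figure D1:**
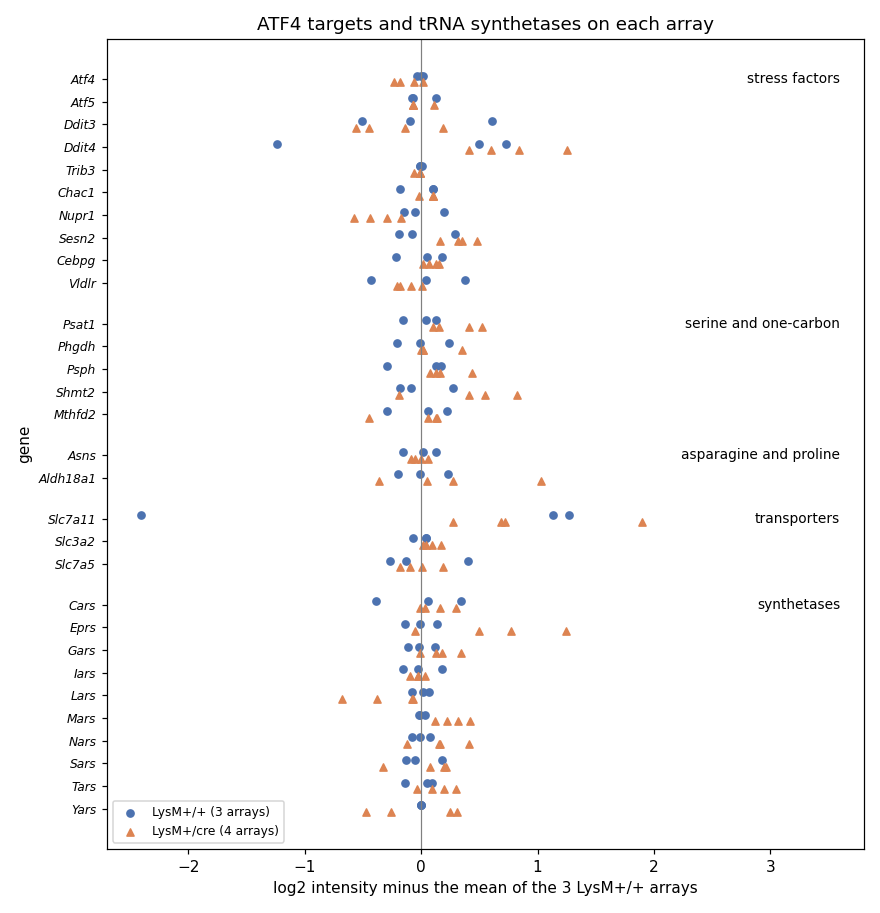
Each row is a measured member, and each mark is 1 array, placed by its log2 intensity minus the mean of the 3 LysM+/+ arrays (circles LysM+/+, triangles LysM+/cre). Most rows lie within 1 log2 unit, and Slc7a11 and Ddit4 have a LysM+/+ array far to the left.

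The stress factors come first, as the regulators of the programme. Atf4, the central transcription factor, gave 11.42, 11.38 and 11.44 on LysM+/+ arrays 1 to 3, and 11.24, 11.44, 11.36 and 11.19 on LysM+/cre arrays 1 to 4. The groups overlapped, and the difference was -0.11 ± 0.076 (SE, 95% interval -0.29 to 0.07, adjusted p = 0.61). A difference in Atf4 RNA beyond 0.29 lower or 0.07 higher thus lay outside this interval, and ATF4 protein was not measured. Atf5, a related factor induced by the same pathway, differed by -0.02 ± 0.081 (SE, adjusted p = 0.938). Cebpg, a C/EBP partner of ATF4, averaged 7.48 ± 0.21 (SD, n = 3) and 7.57 ± 0.060 (SD, n = 4), a difference of 0.09.

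Ddit3 encodes CHOP, a stress factor tied to cell death under lasting stress. The LysM+/+ arrays read 9.41, 10.12 and 9.0, the LysM+/cre arrays 9.06, 9.70, 8.95 and 9.37. LysM+/+ array 2 was the highest of all 7 arrays, and without it the difference of -0.24 became 0.06. Ddit4 encodes REDD1, an inhibitor of mTORC1, and had the opposite pattern. It gave 9.15, 7.18 and 8.92 without cre against 9.02, 9.26, 9.67 and 8.83 with cre. LysM+/+ array 2 was the lowest by far, and the difference of 0.78 ± 0.48 (SE, 95% interval -0.36 to 1.92, adjusted p = 0.562) was 0.16 without that array.

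Sesn2 encodes sestrin 2, a leucine sensor that restrains mTORC1. It measured 7.51, 7.40 and 7.88 on the LysM+/+ arrays, and 8.07, 7.94, 7.91 and 7.75 on the LysM+/cre arrays. Except for LysM+/+ array 3, which lay above LysM+/cre array 4, the cre arrays were the higher ones. The difference was 0.32 ± 0.13 (SE, 1.25-fold higher, 95% interval 0.01 to 0.64, adjusted p = 0.43). It reached an unadjusted p under 0.05 in 6 of 14 alternative settings, and ranged from 0.22 without LysM+/+ array 2 to 0.46 without LysM+/+ array 3.

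Nupr1, a small chromatin protein induced by stress, was the member with the largest lower value. It gave 8.89, 8.54 and 8.64 without cre, and 8.11, 8.40, 8.52 and 8.25 with cre. All 4 cre arrays lay below all 3 controls, though LysM+/cre array 3 and LysM+/+ array 2 were nearly level. The difference was -0.37 ± 0.13 (SE, 95% interval -0.67 to -0.07, adjusted p = 0.406), and 11 of 14 alternatives kept it at an unadjusted p under 0.05. Its promoter holds the composite letters shown above.

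Trib3 and Chac1 were dim and hardly varied. They, Vldlr and Phgdh were the members absent when dim genes were left out, so level values say little about their regulation. Trib3, a pseudokinase induced through ATF4 and CHOP, read 5.16 on 5 arrays, 5.18 on LysM+/+ array 3 and 5.11 on LysM+/cre array 4. Chac1, which degrades glutathione, read 5.49 on 5 arrays, 5.21 on LysM+/+ array 2 and 5.37 on LysM+/cre array 3. Equal readings on several arrays were common in these processed values: 10 of 30 members and 53.8% of all genes had the same value on at least 2 arrays, so small differences of such genes carry little information. Vldlr, a lipoprotein receptor induced by ATF4, ran from 4.35 to 5.16 without cre and from 4.57 to 4.79 with cre. The 10 stress factors had a median difference of -0.02, with 4 higher, or 6 with array medians set equal.

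**Figure D2:**
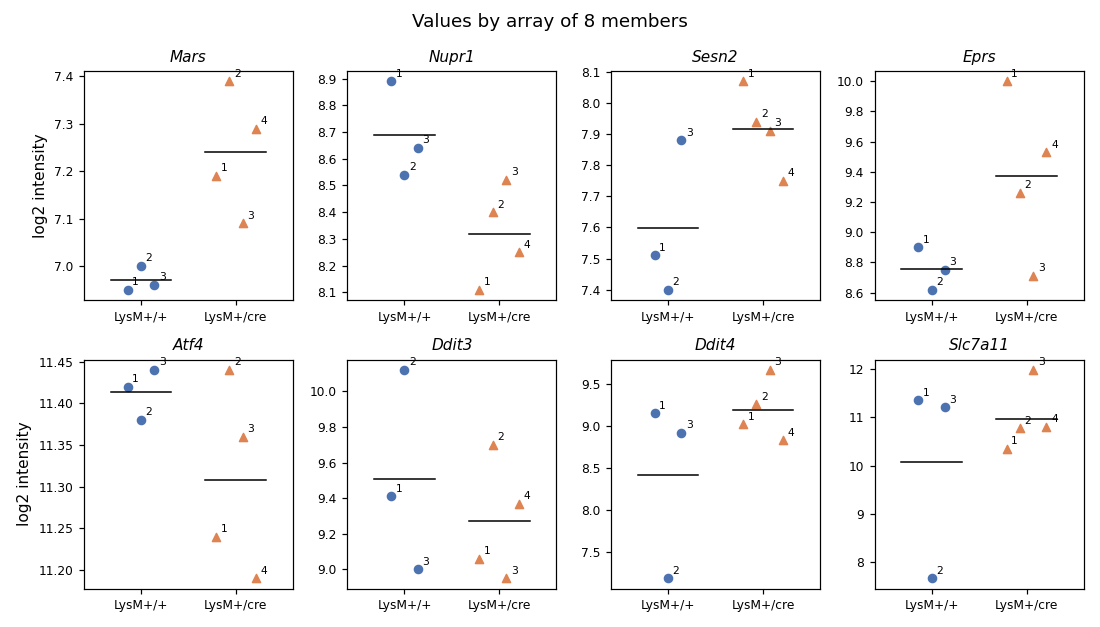
Log2 intensity of 8 members on every array (circles LysM+/+, triangles LysM+/cre, digits the array number, bars the group means), each panel with its own scale. Mars and Nupr1 show no overlap, and LysM+/+ array 2 stands alone in Ddit4 and Slc7a11.

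Serine synthesis feeds the folate cycle with carbon units, and its enzymes are classical ATF4 targets. Of 5 enzymes 4 were higher with cre, by a median of 0.20 over the 5, and none reached an unadjusted p under 0.05 in limma on the deposited values. Psat1, the aminotransferase of serine synthesis, came closest, and reached it in 3 of 14 alternatives: quantile normalization, and without LysM+/cre array 3 or 4. It gave 5.42, 5.71 and 5.62 without cre and 5.99, 6.10, 5.68 and 5.73 with cre. Only LysM+/cre array 3 lay within the control range, just under LysM+/+ array 2, and the difference was 0.29 ± 0.13 (SE, 95% interval -0.01 to 0.60, adjusted p = 0.448).

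Shmt2, the mitochondrial enzyme that passes the carbon of serine to folate, spread more widely. The LysM+/+ arrays read 7.59, 7.95 and 7.50, the LysM+/cre arrays 8.23, 8.09, 7.49 and 8.50. Again 3 cre arrays lay above all controls and LysM+/cre array 3 lay at their lower end. The difference was 0.40 ± 0.24 (SE, adjusted p = 0.558), and 0.59 without LysM+/cre array 3. Without that array Psat1 and Shmt2 both reached an unadjusted p under 0.05. Psph, the phosphatase that completes serine, differed by 0.20 ± 0.14 (SE). Phgdh, which commits glucose carbon to serine, differed by 0.10 ± 0.14 (SE). It was dim, and with dim genes left out 3 of 4 enzymes were higher. Mthfd2, the mitochondrial folate dehydrogenase that often follows ATF4, differed by -0.03 ± 0.18 (SE, 95% interval -0.46 to 0.41). The LysM+/cre array with the lowest mean over these 5 enzymes, array 3, was also the one with the highest mean of the neutrophil markers. Its mean deviation was -0.20, against 0.15 to 0.20 on the other 3 cre arrays and -0.14 to -0.09 on the controls. The other arrays did not keep this order. LysM+/+ array 2 had the lowest neutrophil mean, 5.41, and an enzyme deviation of -0.11. LysM+/cre array 2 had a neutrophil mean of 6.9 and an enzyme deviation of 0.18. The part of neutrophil RNA in this was not tested.

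Asns, asparagine synthetase, is the gene in which the amino acid response element was first worked out. It gave 6.23, 6.05 and 6.34 without cre and 6.12, 6.27, 6.16 and 6.21 with cre. All cre arrays lay within the control range, and the difference was -0.02 ± 0.083 (SE, 95% interval -0.22 to 0.18, adjusted p = 0.942). Aldh18a1, the first enzyme of proline synthesis, was 5.35 to 5.78 without cre and 5.19 to 6.58 with cre. Its difference of 0.24 rested on LysM+/cre array 1 and was -0.02 without that array.

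Among the transporters, Slc7a11, the cystine importer that supplies glutathione synthesis, varied most of all members. It measured 11.35, 7.67 and 11.21 without cre, and 10.35, 10.77, 11.98 and 10.80 with cre. LysM+/+ array 2 lay below every other array, and the range of 4.31 was wider than that of 99.9% of all genes. The difference of 0.90 ± 0.93 (SE, 95% interval -1.31 to 3.10, adjusted p = 0.723) turned to -0.31 without LysM+/+ array 2. The lowest and highest arrays for Slc7a11 were also those for the mean of the neutrophil markers, at 5.41 and 7.93. S100a8 had the same extremes, at 4.74 and 9.87, but not every marker of the list did. Ly6g was highest on LysM+/cre array 2 (8.1) and Ltf on LysM+/cre array 1 (6.44), and Mmp9 was lowest on LysM+/+ array 3 (7.36). The part of neutrophils in the Slc7a11 values was not tested. A second, dimmer probe set of Slc7a11 was likewise lowest on LysM+/+ array 2, at 4.93, and differed between genotypes by 0.06. Ddit4 shared the low LysM+/+ array 2 and the high LysM+/cre array 3.

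Slc3a2, the heavy chain that carries Slc7a11 and Slc7a5 to the membrane, was by contrast steady, at 11.41 to 11.52 without cre and 11.50 to 11.65 with cre. Its difference was 0.08 ± 0.064 (SE, 95% interval -0.08 to 0.23). Slc7a5, the light chain for leucine and other large amino acids, differed by -0.02 ± 0.17 (SE, 95% interval -0.43 to 0.39, adjusted p = 0.973).

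Aminoacyl-tRNA synthetases join each amino acid to its tRNA. Of the 10 measured synthetase members 7 were higher and 3 lower with cre, with a median of 0.13, and 5 higher and 5 lower with a median of 0.04 without LysM+/+ array 2. Mars, the methionine enzyme, separated the genotypes. It gave 6.95, 7.0 and 6.96 without cre, and 7.19, 7.39, 7.09 and 7.29 with cre. Every cre array was above every control, whose SD was only 0.024. The difference was 0.27 ± 0.080 (SE, 1.21-fold higher, 95% interval 0.08 to 0.46, adjusted p = 0.394). It held an unadjusted p under 0.05 in 14 of 14 alternatives, within which its adjusted p ran from 0.262 to 0.621.

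Eprs, which charges glutamate and proline, had the largest synthetase difference. It read 8.90, 8.62 and 8.75 without cre, and 10, 9.26, 8.71 and 9.53 with cre. As for Shmt2, LysM+/cre array 3 fell among the controls and the other cre arrays lay above them. The difference was 0.62 ± 0.28 (SE, 1.53-fold higher, 95% interval -0.05 to 1.29, adjusted p = 0.455), 0.84 without LysM+/cre array 3 and 0.41 without LysM+/cre array 1. Without LysM+/cre array 3, Eprs and the asparagine enzyme Nars joined Mars at an unadjusted p under 0.05. Nars differed by 0.15 ± 0.12 (SE, adjusted p = 0.651) on all arrays, 0.24 without LysM+/cre array 3 and 0.07 without LysM+/cre array 1.

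Lars, the leucine enzyme, went the other way. It gave 7.33, 7.23 and 7.38 without cre, and 6.93, 7.23, 6.63 and 7.24 with cre, so that LysM+/cre arrays 2 and 4 overlapped the controls. The difference was -0.30 ± 0.16 (SE, 95% interval -0.68 to 0.07, adjusted p = 0.498). The remaining members charge glycine (Gars, 0.16), threonine (Tars, 0.14), cysteine (Cars, 0.12), serine (Sars, 0.04), isoleucine (Iars, -0.03) and tyrosine (Yars, -0.04). Yars read 6.62 on all 3 controls and 6.15 to 6.93 with cre. The mean deviation of the 10 synthetases was -0.16 to -0.01 on LysM+/+ arrays and 0.11 to 0.16 on LysM+/cre arrays 1, 2 and 4, but -0.22 on LysM+/cre array 3. A list of 12 macrophage genes held those of the sort markers with Cd68, Csf1r, Adgre1, Mertk and Cx3cr1. It also held Ly6c1 and Ly6c2, for Ly6C, which the sort selected against. The mean deviation over this mixed list had a like order on the LysM+/cre arrays but not on the controls, and is not a measure of macrophage content. It was 0.10 to 0.25 on LysM+/cre arrays 1, 2 and 4 and -0.25 on array 3. On LysM+/+ arrays 1 to 3 it was -0.21, -0.06 and -0.07, where the synthetases gave -0.03, -0.16 and -0.01. The part of these genes in the synthetase values was not tested.

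**Figure D3:**
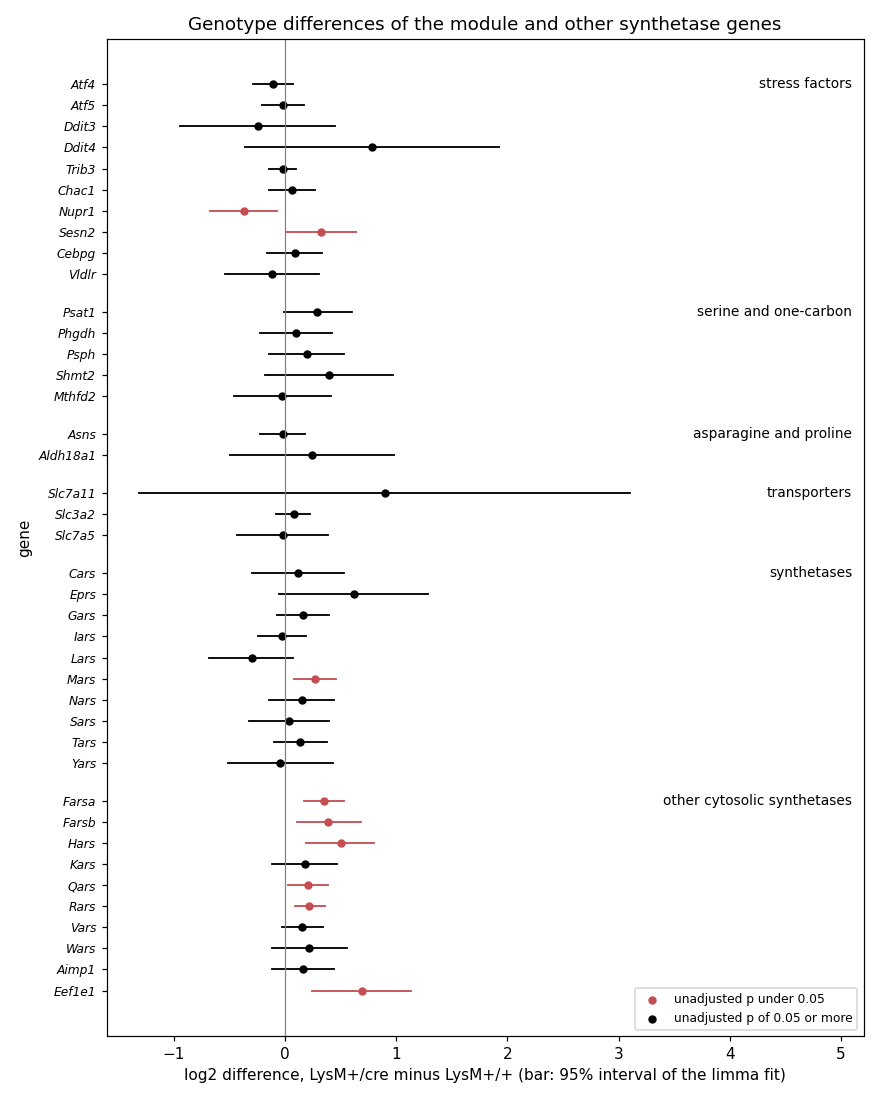
Log2 differences, LysM+/cre minus LysM+/+, with 95% intervals from limma, for the 30 measured members by role and for 10 other cytosolic synthetase genes. Red marks an unadjusted p under 0.05, reached by 3 of the 30 members and by 6 of the 10 other synthetase genes. Of all genes tested 11.5% reached it.

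Synthetase genes that were not members, with the scaffold proteins of the multi-synthetase complex, showed a narrower pattern. Their list was drawn up with earlier results of these data known, so its counts are not independent of the data. All 10 measured were higher with cre, between 0.15 and 0.69 with a median of 0.22. Of these 6 reached an unadjusted p under 0.05 as higher, where 6.56% of all genes did, and 0 passed an adjusted p of 0.05 in limma. The 6 also had no overlap between genotypes, as had 8.79% of all genes in either direction. For Eef1e1 the nearest arrays of the genotypes were level at 7.46. All 10 stayed above 0 in 14 of 14 alternatives, with 5 to 7 at an unadjusted p under 0.05. Cell type markers also differed between the genotypes, by the values given above, and not all of a list in 1 direction. Their part in the synthetase differences was not tested.

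Hars, the histidine enzyme, gave 7.04, 6.90 and 6.67 without cre and 7.37, 7.62, 7.29 and 7.20 with cre. It was higher on every cre array, by 0.50 ± 0.13 in the mean (SE, adjusted p = 0.362). Farsa, the alpha subunit of the phenylalanine enzyme, gave 7.44, 7.41 and 7.44 against 7.60, 7.81, 7.87 and 7.82. Its beta subunit Farsb gave 7.37, 7.30 and 7.33 against 7.94, 7.71, 7.43 and 7.82. Both subunits of this enzyme lay higher on every cre array, by 0.35 ± 0.077 and 0.39 ± 0.12 (SE, adjusted p = 0.333 and 0.395). Rars, the arginine enzyme, differed by 0.22 ± 0.057 (SE) and Qars, the glutamine enzyme, by 0.21 ± 0.076 (SE), which reached the threshold in 7 of 14 alternatives. Eef1e1, a scaffold protein of the complex, had the largest mean difference of these genes, with 7.46, 7.12 and 7.0 against 7.87, 8.18, 7.46 and 8.01. LysM+/cre array 3 lay level with the highest control there, and the difference was 0.69 ± 0.19 (SE, 1.61-fold higher, adjusted p = 0.376). Over the 18 cytosolic synthetases of both lists, scaffold proteins left out, 15 (83.3%) were higher, against 51.4% of all genes. Of the 18, 6 (33.3%) reached an unadjusted p under 0.05 as higher, against 6.56% of all genes. The median over the 18 was 0.17. Of 15 listed mitochondrial synthetases 12 were higher, with a median of 0.07. Of them 0 reached an unadjusted p under 0.05 in limma, against 11.5% of all genes, or 0 to 2 under the alternatives. A further one, Rars2 (-0.14), was counted with the ATF4 targets below. Of the 15, Hars2 (0.34) had the smallest p.

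The other genes of the pathway were counted from lists drawn up by function, also with earlier results of these data known. Upstream, of 12 eIF2 kinases, phosphatase subunits and their partners, 5 (41.7%) reached an unadjusted p under 0.05, against 11.5% of all genes, 2 as higher and 3 as lower. Ppp1r15a encodes GADD34, the stress-induced subunit that directs protein phosphatase 1 to eIF2. It gave 11.62, 11.51 and 11.72 without cre and 10.78, 11.22, 11.06 and 11.20 with cre. The genotypes were well apart, by -0.55 ± 0.12 (SE, 95% interval -0.84 to -0.26, adjusted p = 0.333). Ppp1ca, a catalytic subunit of that phosphatase, was higher on every cre array, at 10.26, 9.94 and 9.80 against 10.79, 10.50, 10.46 and 10.59. Its difference was 0.58 ± 0.13 (SE, adjusted p = 0.333).

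Eif2ak4 encodes GCN2, the kinase that senses uncharged tRNA. It measured 7.75, 7.81 and 7.95 without cre, and 7.32, 7.64, 7.58 and 7.36 with cre. All cre arrays were lower, by 0.36 in the mean (difference -0.36 ± 0.10, SE, adjusted p = 0.394). Gcn1l1, listed as Gcn1, an activator of GCN2, was higher by 0.30 ± 0.087 (SE), though a dimmer probe set of it differed by 0.06. Impact, an inhibitor of GCN2, differed by -0.30 ± 0.11 (SE). Ppp1r15a, Ppp1ca, Eif2ak4 and Gcn1l1 each held an unadjusted p under 0.05 in 14 of 14 alternatives, and Impact in 9. Of 6 subunits of eIF2 and its exchange factor eIF2B, 5 were higher, with Eif2b5 at 0.21 ± 0.079 (SE) reaching that threshold, which it held in 5 of 14 alternatives.

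Downstream, 26 further ATF4 targets had 10 higher and 16 lower, with a median of -0.05. The 3 that reached an unadjusted p under 0.05 (11.5%, the share of all genes) were higher. Eif4ebp1, the translation repressor 4E-BP1, gave 7.83, 7.16 and 7.16 against 8.16, 7.98, 8.05 and 7.82. Its difference was 0.61 ± 0.18 (SE, adjusted p = 0.394), with LysM+/+ array 1 at the level of the cre arrays. Vegfa, an angiogenic factor also induced by hypoxia, differed by 0.94 ± 0.34 (SE) and was 10.07 on LysM+/+ array 2 against 11.23 and 11.56 on the other controls. Without that array its difference was 0.49. Got1, an aspartate aminotransferase, differed by 0.61 ± 0.21 (SE). Of 14 alternatives Eif4ebp1 held the threshold in 14, Got1 in 12 and Vegfa in 11. The count was 6 without LysM+/+ array 1 or LysM+/cre array 2, 5 without LysM+/cre array 3 and 1 without LysM+/cre array 4. It was 5 with quantile normalization and 7 with the replicate number as a block. The block gave the same differences as leaving out LysM+/cre array 4, with other standard errors. Of 9 other folate genes 6 were higher, and Sfxn1, a mitochondrial serine transporter, reached an unadjusted p under 0.05 at 0.25 ± 0.096 (SE) and held it in 5 of 14 alternatives.

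**Figure D4:**
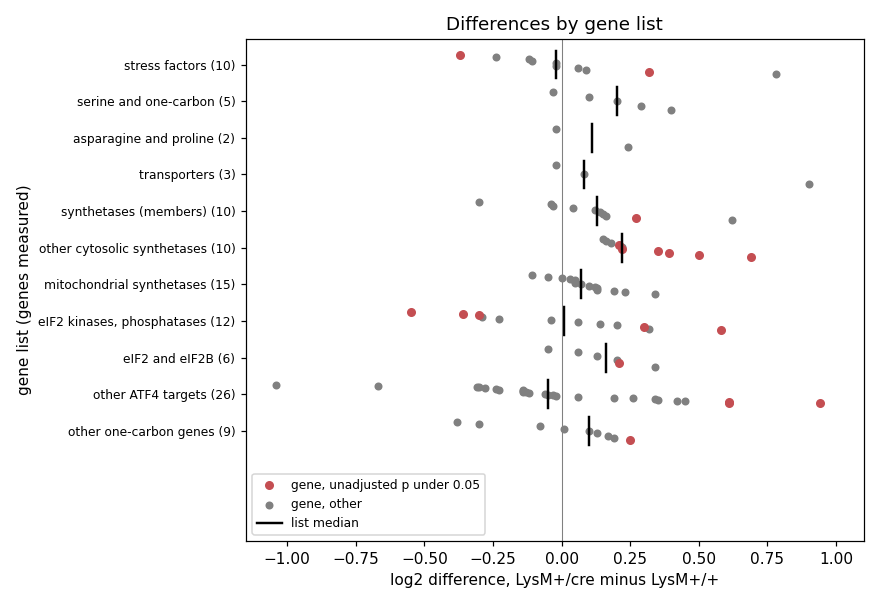
Each dot is a gene, placed by its log2 difference (LysM+/cre minus LysM+/+) within its list, with the list median as a bar and an unadjusted p under 0.05 in red. The other cytosolic synthetases lie wholly above 0, and the eIF2 kinase and phosphatase list reaches out to both sides.

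The differences are described here by whether the promoter holds the letters, and no test was made between the sets. The 10 measured members that hold TGATGNAA had 4 higher and 6 lower and a median of -0.02, with a span of -0.37 (Nupr1) to 0.90 (Slc7a11). Of the lower ones, Trib3 and Asns (-0.02 each), Iars (-0.03) and Yars (-0.04) lay near 0. With array medians set equal, Trib3 and Asns lay just above 0, so this count does not show a direction. The 16 measured members whose promoters lack the letters had 12 higher and a median of 0.15. Of all genes tested 51.4% were higher. Over all tested genes with a promoter in the table, 9.31% of the 666 with the letters reached an unadjusted p under 0.05, against 12.0% of those without.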

How the data were processed

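Expression was measured on 7 arrays, 3 LysM+/+ and 4 LysM+/cre. The authors made the values, which are on a log2 scale with 1 per probe set and array, with Affymetrix Expression Console, per the design text; the submitters' processing notes add Transcriptome Analysis Console. Neither source gives versions, summarisation, background correction or between-array scaling. No detection calls were used.

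Of 41345 probe sets, 16010 had no symbol in the platform annotation, 1814 carried several symbols and stayed unnamed, and 23521 had exactly 1. Per gene the probe set with the highest mean over the 7 arrays was kept, which left 22180 genes. Members were matched by symbol, and Mars and Gcn1l1 through RefSeq synonyms.

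The comparison, LysM+/cre minus LysM+/+, used lmFit and eBayes of limma 3.58.1 (R 4.3.3), with a two-sided test over all genes and Benjamini-Hochberg adjustment at 0.05. The threshold named beside counts is an unadjusted p under 0.05. Nothing in the labels says that samples are separate animals, so p-values measure the spread between samples. In data of 22180 genes made with known changes for this comparison, 75.2% of 2-fold and 94.9% of 4-fold changes were recovered, and 4.33% of calls were false. The noise there was drawn independently for each gene and array. It held no shifts that genes share on an array, so these shares may not hold for the real arrays. All members were named. Of the other pathway lists, genes at an unadjusted p under 0.05 were named, or else the gene of smallest p. Members and lists were chosen with earlier results of these data known. Alternatives were array medians set equal, quantile normalization, dim genes left out, the mean over probe sets, an intensity trend with robust variance, array weights, the replicate number as a block, and each array left out. Figures were drawn with matplotlib 3.10.9.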

Additional observations from a re-analysis of the deposited data

Results flagged for a closer look

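Among the 4 LysM+/cre arrays, 1 array lay far from the other 3 in 5 of 47 genes examined by Dixon's test, which chance gives in about 1 of 20 groups. For Atf5 it was LysM+/cre array 4 at 6.66, and for Trib3 array 4 at 5.11. For Chac1 it was LysM+/cre array 3 at 5.37. In these 3 genes the other 3 cre arrays had identical values, so the test turns on differences of at most 0.17. Phgdh was highest on LysM+/cre array 4 at 5.30, and Mthfd2 lowest on LysM+/cre array 3 at 5.75. Groups of 3 arrays were not examined this way, so the low Slc7a11 and Ddit4 values of LysM+/+ array 2 are given in the report as values only.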

How the results depend on the processing

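Precision is limited by there being only 7 arrays. Across all 14 alternatives 0 genes passed an adjusted p of 0.05 in limma, and the members' median difference stayed between 0.013 and 0.12. The count of members at an unadjusted p under 0.05 was 1 with the replicate block and 1 to 6 when 1 array was left out. Same-numbered arrays did not deviate together in all pairs (r = -0.115, 0.121 and 0.103), and the numbers only name the arrays. The block changed no adjusted call. Of 654 gene values under the alternatives, 623 kept their direction and 31, in 16 members, changed sign; all 16 were uncalled. With array medians set equal the values that changed sign were Atf5 0.0045, Trib3 0.0025, Asns 0.0048 and Slc7a5 0.0047. With quantile normalization they were Trib3 0.0016, Asns 0.0022 and Sars -0.0064, and with the replicate block Slc7a5 0.034. When 1 array was left out, differences that changed sign ranged from -0.06 to 0.048 for Atf5, -0.5 to 0.064 for Ddit3, -0.029 to 0.11 for Chac1, -0.028 to 0.17 for Cebpg and -0.33 to 0.077 for Vldlr. The range was -0.014 to 0.21 for Phgdh, -0.17 to 0.11 for Mthfd2, -0.1 to 0.046 for Asns, -0.018 to 0.44 for Aldh18a1, -0.31 to 1.53 for Slc7a11 and -0.16 to 0.18 for Slc7a5. It was -0.079 to 0.29 for Cars, -0.11 to 0.065 for Iars, -0.026 to 0.16 for Sars and -0.16 to 0.1 for Yars. The cause of these changes was not tested.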
